A study of Arabidopsis thaliana with 9 samples.

Results

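Starch metabolism was followed here through 10 Arabidopsis thaliana genes of the chloroplast, 5 of synthesis (APL1, APS1, SS1, SS4 and GBSS1) and 5 of breakdown (ISA3, BAM3, GWD1, SEX4 and DPE1). They were taken by locus from a table of 32833 genes, by a rule that uses no measured value, although earlier results of these data were known when they were picked, and all 10 are present in it. RNA was sequenced from whole seedlings 6 days old in 3 groups of 3 libraries. The groups were albino seedlings of the 2cpab mutant, green seedlings of the same mutant, and the wild type Col-0. All of them grew on MS medium with 0.5% sucrose with the light on throughout at 125 µE m-2 s-1, so no group had a night and each was fed sugar. The mutant takes its name from the genes 2CPA and 2CPB, which encode the 2-Cys peroxiredoxins of the chloroplast, thiol enzymes that remove hydrogen peroxide. The labels do not name the mutant alleles, nor the number of lines or of seedlings in a library. Setting each mutant group against the wild type shows which starch transcripts differ where RNA of these enzymes is low, and setting albino against green seedlings shows which differ between the outcomes of the mutant.

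Leaf starch is made in the chloroplast from glucose phosphate. ADP-glucose pyrophosphorylase, built of large and small subunits, makes ADP-glucose, and starch synthases, branching enzymes and debranching enzymes build it into granules. Breakdown begins with phosphate groups being added to and removed from the granule surface, after which beta-amylases, debranching enzymes and a disproportionating enzyme release maltose and glucose for export. Several of these proteins, ADP-glucose pyrophosphorylase among them, are known to be switched by thiol reduction through thioredoxins, the same kind of reductant that recharges 2-Cys peroxiredoxins. Transcript levels do not report on that switch.

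Levels are given as scaled FPKM, read fragments divided by transcript length and library total after the authors' scaling of each library, and can be set side by side between genes. Total reads are unknown from these values, and depth relative to wild-type replicate 1 was 0.868 to 1.15. The targeted genes went with the labels, 2CPA standing at 21.4 to 25.4 in albino, 35.8 to 267 in green and 763 to 989 in wild-type libraries. Green replicate 1 differed from its fellow green libraries, with 35.8 for 2CPA against 267 and 256, and with 7.21 for 2CPB against 48.6 and 54.2. The calls made in green against wild-type seedlings are therefore also given without it. Of 4 marker genes of green tissue, 4 were lower in albino than in wild-type seedlings, their summed level being 2876 to 3456 in albino, 23840 to 38620 in green and 27580 to 35580 in wild-type libraries. Of 3 guard cell markers, 3 were lower in albino than in wild-type seedlings (summed 7.51 to 8.42 in albino, 13.6 to 15.1 in green and 15.6 to 17.6 in wild-type libraries). Of 3 seed markers, 3 were higher in each mutant group than in the wild type (summed 28.2 to 84.7 in albino, 34.7 to 47.0 in green and 2.45 to 11.6 in wild-type libraries, CRC being listed at 0 in wild-type replicate 1). Of 5 root markers, 1 was higher in albino than in wild-type seedlings (summed 53.4 to 58.0 in albino, 37.7 to 42.1 in green and 40.3 to 64.4 in wild-type libraries). The part of these markers in the starch results was not tested. Whether replicates were separate cultures is not stated, and the p-values measure the spread among these libraries, which may be technical.

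Albino seedlings held less RNA of 4 synthesis genes and of the beta-amylase gene BAM3, and more RNA of the breakdown genes SEX4 and ISA3, than the wild type. The largest falls were those of BAM3 and APL1, which stood at 21.2% and 24.1% of the wild-type mean. In the count over the 10 genes, 5 were lower and 2 were higher in albino than in wild-type seedlings. In this comparison 43.5% of all 19731 tested genes were called (20.1% lower and 23.4% higher). Changes are log2 fold changes on the log2(scaled FPKM + 1) scale with their standard error, and a gene was called at an adjusted p under 0.05 in limma with Benjamini-Hochberg adjustment over all tested genes. The albino and wild-type groups did not overlap for 7 of the 10, against 56% of all tested genes. The median log2 fold change of the 10 was -0.51, beside 0.07 over all tested genes. In these whole-seedling samples, fewer cells of a type and less RNA per cell cannot be told apart.

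Green mutant seedlings held more RNA of 4 of the 5 breakdown genes than the wild type, and 0 of the 5 synthesis genes were called. ISA3 and SEX4 stood at 169.9% and 163% of the wild-type mean, and GWD1 and DPE1 at 148% and 146%. In green against wild-type seedlings 4 of the 10 genes were higher and 0 were lower with limma, counts that were also 4 and 0 at an unadjusted p under 0.05. The share of all tested genes at an unadjusted p was not counted, so only the adjusted counts can be set against a share. Over all tested genes 8.87% were called here, 3.71% higher and 5.16% lower. Green and wild-type libraries did not overlap for 4 of the 10, beside 23.8% of all tested genes. The medians were 0.55 for the 5 breakdown genes, 0.08 for the 5 synthesis genes and 0.02 for all tested genes. The calls of ISA3 and SEX4 held in all 20 alternative settings, whereas those of GWD1 and DPE1 were lost in 9 and 5 of them.

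Between the mutant groups, albino seedlings had less RNA of 6 genes, APL1, BAM3, GBSS1, APS1, SS1 and DPE1, than green ones. None of the 10 was higher by limma, at an adjusted or at an unadjusted p under 0.05. Of all tested genes 36.1% were called in albino against green seedlings (17.7% lower and 18.5% higher). The groups did not overlap for 7 of the 10, beside 53.3% of all tested genes. ISA3, SEX4, GWD1 and SS4 did not pass between albino and green seedlings. The 3 comparisons share groups of libraries and are not independent of each other.

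**Figure D1:**
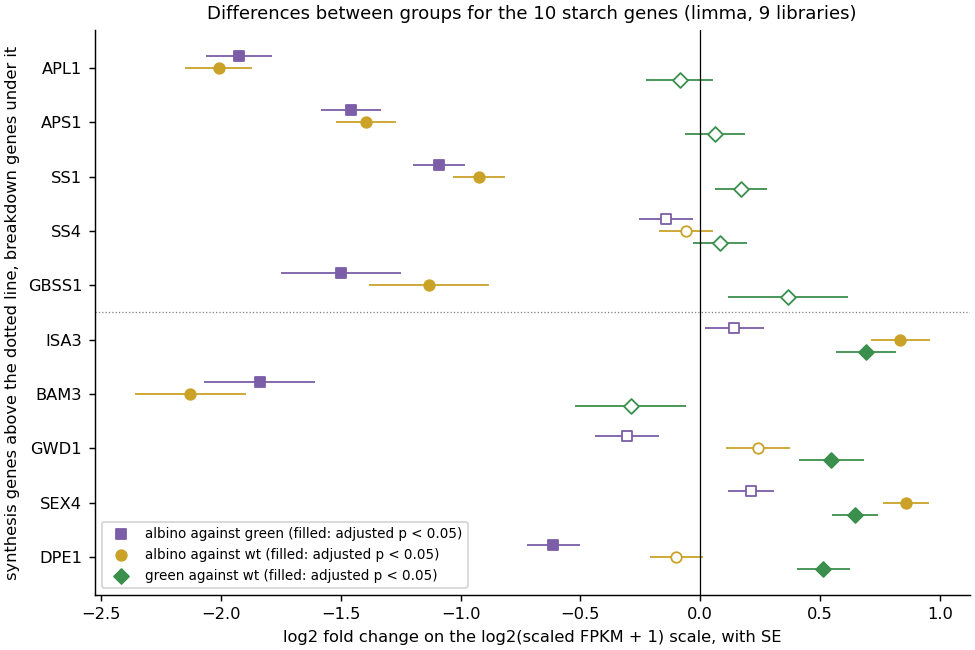
Log2 fold changes of the 10 starch genes with their standard error (horizontal axis, log2(scaled FPKM + 1) scale) for albino against green, albino against wild-type (wt) and green against wild-type seedlings, with filled symbols for adjusted p under 0.05 in limma. APL1, APS1, SS1, GBSS1 and BAM3 lie left of 0 in both albino comparisons, while ISA3 and SEX4 lie right of 0 for both mutant groups against the wild type.

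Among the synthesis genes, the falls of albino seedlings against the wild type were largest for the subunits of ADP-glucose pyrophosphorylase. APL1 (AT5G19220, protein coding, chromosome 5 from 6463824 to 6466831, minus strand, TAIR10.1 annotation) encodes the main large, regulatory subunit of leaves. APL1 stood at 36.4, 31.1 and 29.4 in albino, 110.5, 128.5 and 137.7 in green and 160.1, 117.3 and 124.4 in wild-type replicates 1 to 3. Each albino library was far below every green and wild-type library, and green and wild-type libraries overlapped. APL1 fell by 2.01 ± 0.14 in albino seedlings against the wild type (adjusted p = 6.08e-06) and by 1.93 ± 0.14 against green seedlings (adjusted p = 1.20e-05). In green seedlings its change was -0.09 ± 0.14 (adjusted p = 0.790, 95% interval -0.40 to 0.23). The gene is overlapped on the opposite strand by AT5G19221 over 2386 bases and by AT5G19210 over 43 bases, which stood at 0.954 to 2.19 and 3.11 to 4.46 over all 9 libraries. The library kit keeps strand, but whether the counting used it is not given in the sources used here.

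APS1 (AT5G48300, named ADG1 in the annotation, chromosome 5 from 19570238 to 19572804, plus strand) encodes the small, catalytic subunit that pairs with APL1. APS1 stood at 69.6, 59.7 and 59.6 in albino, 153.7, 190.3 and 180.7 in green and 191.9, 158.6 and 152 in wild-type libraries. Albino libraries lay below all others, and green and wild-type libraries overlapped. APS1 fell by 1.39 ± 0.13 in albino seedlings against the wild type (adjusted p = 2.19e-05) and by 1.46 ± 0.13 against green ones (adjusted p = 2.94e-05). In green seedlings it changed by 0.06 ± 0.13 (adjusted p = 0.832, 95% interval -0.22 to 0.34). The mean ratio of APL1 to APS1 within a library, which no scaling between libraries can alter, was 0.513 ± 0.016 in albino, 0.719 ± 0.0435 in green and 0.798 ± 0.0507 in wild-type libraries (SD, n = 3 each). All 3 albino ratios lay below all green and wild-type ratios, so the 2 subunit genes were not lowered equally.

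The starch synthase genes did not move as a block. SS1 (AT5G24300, chromosome 5 from 8266566 to 8271205, plus strand) encodes a soluble synthase that extends short glucan chains. SS1 stood at 23.9, 22.5 and 23.6 in albino, 46.5, 59.0 and 48.0 in green and 49.2, 46.2 and 40.5 in wild-type libraries. The albino libraries were the 3 lowest and were close to each other, with a mean of 51.6% of the wild-type mean. SS1 fell by 0.92 ± 0.11 in albino seedlings against the wild type (adjusted p = 0.000119) and by 1.09 ± 0.11 against green ones (adjusted p = 6.44e-05). In green seedlings its change was 0.17 ± 0.11 (adjusted p = 0.422, 95% interval -0.08 to 0.41).

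SS4 (AT4G18240, chromosome 4 from 10082108 to 10087203, plus strand) encodes the synthase that helps to start granules and set their number. SS4 stood at 14.7, 15.2 and 12.4 in albino, 17.4, 13.5 and 16.1 in green and 15.6, 14.6 and 13.9 in wild-type libraries. All 3 groups overlapped, and SS4 was not called in any comparison. Its change was -0.06 ± 0.11 in albino seedlings against the wild type (adjusted p = 0.693, 95% interval -0.31 to 0.19), 0.08 ± 0.11 in green ones against the wild type (adjusted p = 0.747, -0.17 to 0.33) and -0.14 ± 0.11 in albino against green ones (adjusted p = 0.358, -0.39 to 0.11). The ratio of SS1 to SS4 averaged 1.67 ± 0.217 in albino, 3.34 ± 0.906 in green and 3.08 ± 0.140 in wild-type libraries (SD, n = 3 each), with the albino values below all others.

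GBSS1 (AT1G32900, chromosome 1 from 11920390 to 11923866, minus strand) encodes the granule-bound synthase that makes amylose. GBSS1 stood at 8.78, 6.83 and 5.18 in albino, 19.9, 23.3 and 20.1 in green and 25.5, 12.3 and 13.2 in wild-type libraries. Albino libraries were below all others, while wild-type replicate 1 was the highest of all 9 libraries and the other wild-type libraries were below every green one. GBSS1 fell by 1.13 ± 0.25 in albino seedlings against the wild type (adjusted p = 0.00499) and by 1.5 ± 0.25 against green ones (adjusted p = 0.00130). In green seedlings its change was 0.37 ± 0.25 (adjusted p = 0.455, 95% interval -0.20 to 0.93). Without wild-type replicate 1 that change was 0.68 (adjusted p = 0.0515) and the fall in albino seedlings was 0.82 (adjusted p = 0.00627).

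Of the pair of genes that add and remove granule phosphate, SEX4 was raised in both mutant groups. SEX4 (AT3G52180, chromosome 3 from 19349600 to 19353728, minus strand) encodes a phosphoglucan phosphatase needed for normal starch breakdown. SEX4 stood at 18.0, 17.2 and 14.5 in albino, 14.96, 14.01 and 13.3 in green and 8.80, 8.99 and 8.15 in wild-type libraries. Every mutant library exceeded every wild-type library, and albino and green libraries overlapped. SEX4 rose by 0.86 ± 0.10 in albino (adjusted p = 8.55e-05) and by 0.65 ± 0.10 in green seedlings against the wild type (adjusted p = 0.00345). Between albino and green seedlings the difference was 0.21 ± 0.10 (adjusted p = 0.113, 95% interval -0.0024 to 0.43), and without albino replicate 3 it was 0.30 and passed (adjusted p = 0.0379).

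GWD1 (AT1G10760, named SEX1 in the annotation, chromosome 1 from 3580830 to 3590928, minus strand) encodes the glucan, water dikinase that adds phosphate to the granule. GWD1 stood at 21.2, 21.6 and 17.8 in albino, 28.4, 24.5 and 22.8 in green and 18.1, 19.1 and 13.8 in wild-type libraries. Green libraries were the 3 highest, and albino and wild-type libraries overlapped. GWD1 rose by 0.55 ± 0.14 in green seedlings against the wild type (adjusted p = 0.0344). Its change was 0.24 ± 0.14 in albino seedlings against the wild type (adjusted p = 0.179, 95% interval -0.06 to 0.54) and -0.31 ± 0.14 in albino against green seedlings (adjusted p = 0.106, -0.61 to -0.0032). The rise in green seedlings no longer passed without green replicate 1 (0.46, adjusted p = 0.104), green replicate 2 (0.0809), wild-type replicate 1 (0.0523) or 3 (0.1003), albino replicate 1 (0.0547) or 2 (0.0547), or with the 6 green and wild-type libraries alone (0.0743).

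ISA3 (AT4G09020, chromosome 4 from 5783909 to 5789100, plus strand) encodes an isoamylase that removes branches during breakdown. ISA3 stood at 13.4, 14.9 and 12.1 in albino, 13.7, 11.3 and 11.3 in green and 6.39, 8.39 and 6.59 in wild-type libraries. Each mutant library exceeded each wild-type library, and the albino and green ranges overlapped. ISA3 rose by 0.84 ± 0.12 in albino (adjusted p = 0.000476) and by 0.69 ± 0.12 in green seedlings against the wild type (adjusted p = 0.00800). Between albino and green seedlings its difference was 0.14 ± 0.12 (adjusted p = 0.401, 95% interval -0.13 to 0.42).

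Of the 5 breakdown genes followed here, BAM3 alone was called lower in albino than in wild-type seedlings. ISA3 and SEX4 were called higher, and GWD1 and DPE1 were not called. BAM3 (AT4G17090, named CT-BMY in the annotation, chromosome 4 from 9604962 to 9607402, minus strand) encodes a plastid beta-amylase that releases maltose. BAM3 stood at 13.5, 10.3 and 14.9 in albino, 35.8, 60.3 and 52.0 in green and 80.9, 53.2 and 48.2 in wild-type libraries. Albino libraries were far below the rest, with green replicate 1 the lowest and wild-type replicate 1 the highest of the other 6. BAM3 fell by 2.13 ± 0.23 in albino seedlings against the wild type (adjusted p = 7.09e-05) and by 1.84 ± 0.23 against green ones (adjusted p = 0.000253). In green seedlings its change was -0.29 ± 0.23 (adjusted p = 0.533, 95% interval -0.81 to 0.23), and -0.08 without green replicate 1 (adjusted p = 0.883). BAM3 is overlapped on the opposite strand by AT4G17085 over 13 bases, at 7.45 to 14.6, and by AT4G06665 over 518 bases, listed at 0 in all 9 libraries.

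DPE1 (AT5G64860, chromosome 5 from 25925173 to 25928879, minus strand) encodes the plastid disproportionating enzyme that acts on the short glucans left by beta-amylase. DPE1 stood at 9.58, 10.9 and 9.93 in albino, 17.2, 16.2 and 14.8 in green and 10.9, 12.6 and 9.46 in wild-type libraries. Green libraries were the 3 highest, and albino and wild-type libraries overlapped. DPE1 rose by 0.51 ± 0.11 in green seedlings against the wild type (adjusted p = 0.0190) and fell by 0.61 ± 0.11 in albino against green seedlings (adjusted p = 0.00194). In albino seedlings against the wild type its change was -0.10 ± 0.11 (adjusted p = 0.494, 95% interval -0.35 to 0.15). The rise in green seedlings no longer passed without green replicate 1 (0.47, adjusted p = 0.0616), green replicate 2 (0.0575) or wild-type replicate 3 (0.0632), or with the 6 libraries alone (0.0556).

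**Figure D2:**
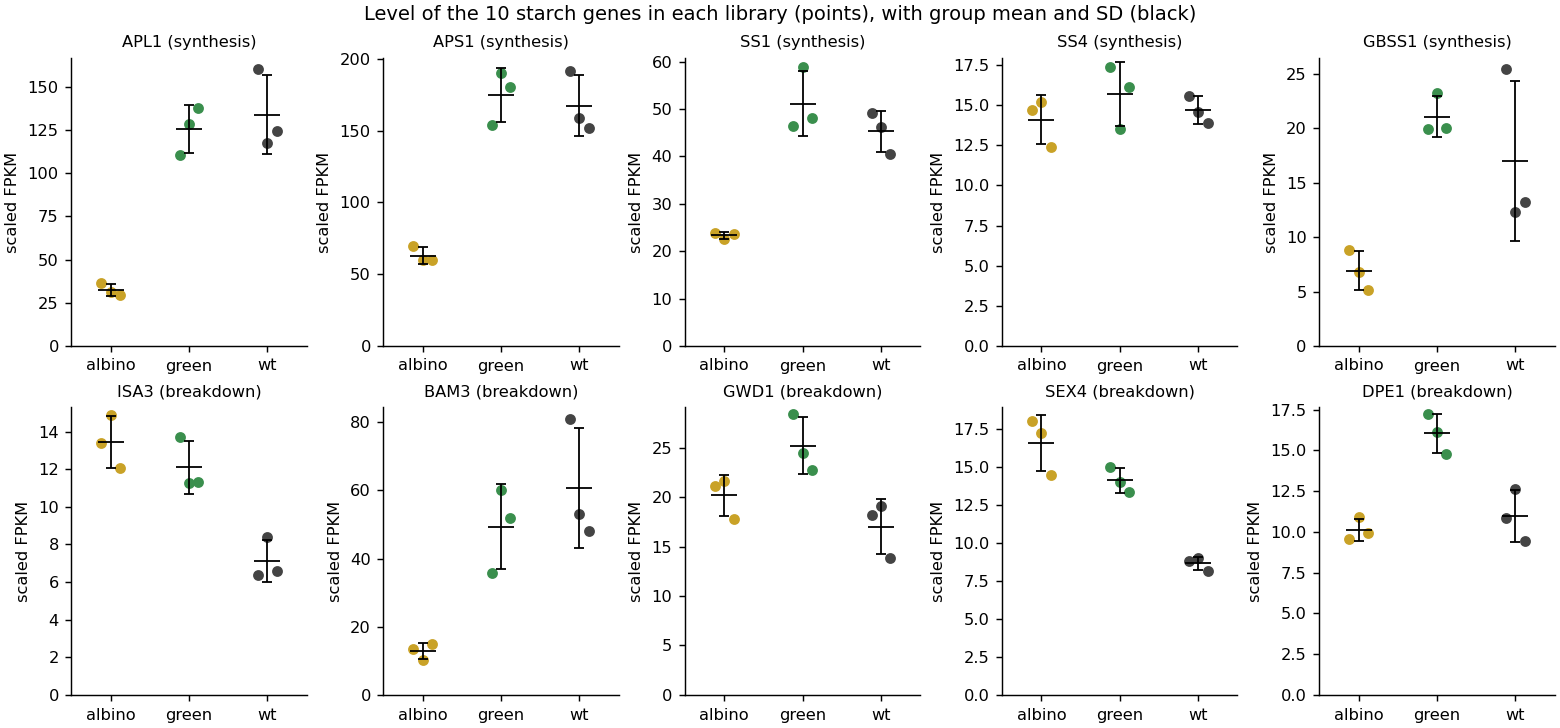
Scaled FPKM (vertical axes, each starting at 0) of the 10 starch genes in each library of albino, green and wild-type (wt) seedlings, points being replicates 1 to 3 from left to right and black bars the group mean and SD. The albino points of APL1, APS1, SS1, GBSS1 and BAM3 lie below all others, the wild-type points of ISA3 and SEX4 lie below all mutant points, and the green points of GWD1 and DPE1 lie above all others.

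Green replicate 1, the green library with the least 2CPA and 2CPB RNA, also had the lowest green values of APL1, APS1, SS1, GBSS1 and BAM3 and the highest of SS4, ISA3, GWD1, SEX4 and DPE1. Without it, 2 of the 10 genes, ISA3 (0.61, adjusted p = 0.0268) and SEX4 (0.60, adjusted p = 0.0129), were higher in green than in wild-type seedlings. Of all 19731 tested genes 569 were higher in that fit, against 733 with all libraries. With it as the lone green library, the changes were 0.87 for ISA3, 0.73 for SEX4, 0.72 for GWD1 and 0.61 for DPE1. The 6 falls in albino against green seedlings all passed without green replicate 1, where 3475 of all tested genes were lower. With it as the lone green library they were -1.75 for APL1, -1.28 for APS1, -0.96 for SS1, -1.42 for GBSS1, -1.42 for BAM3 and -0.71 for DPE1.

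The sequence before the transcription start was read for all 10 genes from the RefSeq TAIR10.1 genome, 250 bases each. Those of 5 genes are shown as examples that hold a motif marked below and belong to genes with different changes. GBSS1 also holds a marked motif and is not shown. ISA3 was raised in the mutants, BAM3 and SS1 were lowered in albino seedlings, DPE1 was raised in green seedlings, and SS4 was not called. They lie at chr4:5783659-5783908 (plus strand) for ISA3, chr4:9607403-9607652 (minus strand) for BAM3, chr5:8266316-8266565 (plus strand) for SS1, chr4:10081858-10082107 (plus strand) for SS4 and chr5:25928880-25929129 (minus strand) for DPE1. Each is written 5′ to 3′ towards the gene, with capitals marking the G-box CACGTG, the abscisic acid element core ACGTGNC and the evening element core AAATATC on either strand.
ISA3: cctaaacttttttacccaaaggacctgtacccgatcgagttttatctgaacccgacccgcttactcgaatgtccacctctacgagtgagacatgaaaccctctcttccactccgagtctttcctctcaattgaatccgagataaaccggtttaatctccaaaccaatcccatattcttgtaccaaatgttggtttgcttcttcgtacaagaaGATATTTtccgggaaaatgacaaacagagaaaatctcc
BAM3: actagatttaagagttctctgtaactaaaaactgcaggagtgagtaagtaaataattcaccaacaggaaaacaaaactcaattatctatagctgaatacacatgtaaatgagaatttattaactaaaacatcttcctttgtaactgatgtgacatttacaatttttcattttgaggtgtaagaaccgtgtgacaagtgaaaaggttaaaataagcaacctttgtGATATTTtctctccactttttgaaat
SS1: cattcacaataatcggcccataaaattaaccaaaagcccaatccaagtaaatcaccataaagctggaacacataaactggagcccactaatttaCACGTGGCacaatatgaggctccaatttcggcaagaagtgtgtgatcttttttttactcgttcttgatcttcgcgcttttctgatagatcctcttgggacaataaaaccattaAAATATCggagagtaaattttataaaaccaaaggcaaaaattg
SS4: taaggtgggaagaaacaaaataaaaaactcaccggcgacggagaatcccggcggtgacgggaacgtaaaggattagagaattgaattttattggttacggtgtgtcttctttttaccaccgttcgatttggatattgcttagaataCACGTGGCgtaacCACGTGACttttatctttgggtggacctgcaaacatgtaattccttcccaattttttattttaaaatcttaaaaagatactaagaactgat
DPE1: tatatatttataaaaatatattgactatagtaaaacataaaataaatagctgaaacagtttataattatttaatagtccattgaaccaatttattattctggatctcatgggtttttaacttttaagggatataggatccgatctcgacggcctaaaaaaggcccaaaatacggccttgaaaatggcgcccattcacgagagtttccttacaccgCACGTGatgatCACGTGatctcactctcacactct
The evening element core stood 38 to 32 bases before the start of ISA3 and 26 to 20 bases before that of BAM3, genes that moved in opposite directions in albino seedlings. It was found before 4 of the 10 genes (SS1, GBSS1, ISA3 and BAM3), and before 12.2% of the 27443 regions of that length in the genome. The G-box was found before SS1, SS4 and DPE1, with SS4 and DPE1 holding a pair each, and before 6.49% of all regions. ACGTGNC overlapped the G-box in SS1 and SS4 and occurs in 8.57% of all regions. The heat shock element GAANNTTC (9.55% of all regions) and the I-box GATAAG (12.3%) were before 0 of the 10 genes, and the W-box core TTGAC (44.9%) was before 5, APL1, APS1, GWD1, SEX4 and DPE1. These matches describe the letters of the window alone.

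The order of levels differed between the groups. APS1 and APL1 led in all 3 groups, and in albino libraries they were followed by SS1 and GWD1. BAM3 had rank 8 in albino seedlings at a mean of 12.9, rank 4 in green seedlings at 49.3 and rank 3 in the wild type at 60.8. In albino seedlings GWD1, SEX4, SS4, ISA3 and BAM3 each overlapped the next in order down to DPE1, with means of 20.2 to 10.14, and GBSS1 was lowest at 6.93 and did not overlap DPE1. In green seedlings SS1 overlapped BAM3, GWD1 overlapped GBSS1, and DPE1, SS4, SEX4 and ISA3 overlapped in turn. In the wild type APS1 overlapped APL1, BAM3 overlapped SS1, GWD1, GBSS1 and SS4 overlapped in turn, and SEX4 overlapped ISA3, the lowest at 7.12. The highest of the 10 means was 9.09 times the lowest in albino, 14.5 times in green and 23.5 times in wild-type seedlings.

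Summed over each set of 5 genes, synthesis RNA was 153.3, 135.4 and 130.1 in albino, 347.9, 414.5 and 402.6 in green and 442.2, 349 and 344.1 in wild-type libraries. Summed breakdown RNA was 75.6, 74.9 and 69.2 in albino, 110.1, 126.2 and 114.1 in green and 125.1, 102.3 and 86.2 in wild-type libraries. Without BAM3 the breakdown sum was 54.3 to 64.6 in albino, 62.2 to 74.2 in green and 38.0 to 49.1 in wild-type libraries. Every mutant library then exceeded every wild-type library, but this rests on leaving out the breakdown gene that fell. With all 5 genes, green and wild-type sums overlapped and albino sums were the lowest. The ratio of synthesis to breakdown averaged 1.91 ± 0.112 in albino, 3.33 ± 0.186 in green and 3.65 ± 0.305 in wild-type libraries (SD, n = 3 each). Albino ratios lay below all others, and green and wild-type ratios overlapped. BAM3 over ISA3 was 1.01, 0.694 and 1.23 in albino, 2.61, 5.36 and 4.59 in green and 12.7, 6.34 and 7.32 in wild-type libraries, with no overlap between any of the groups.

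**Figure D3:**
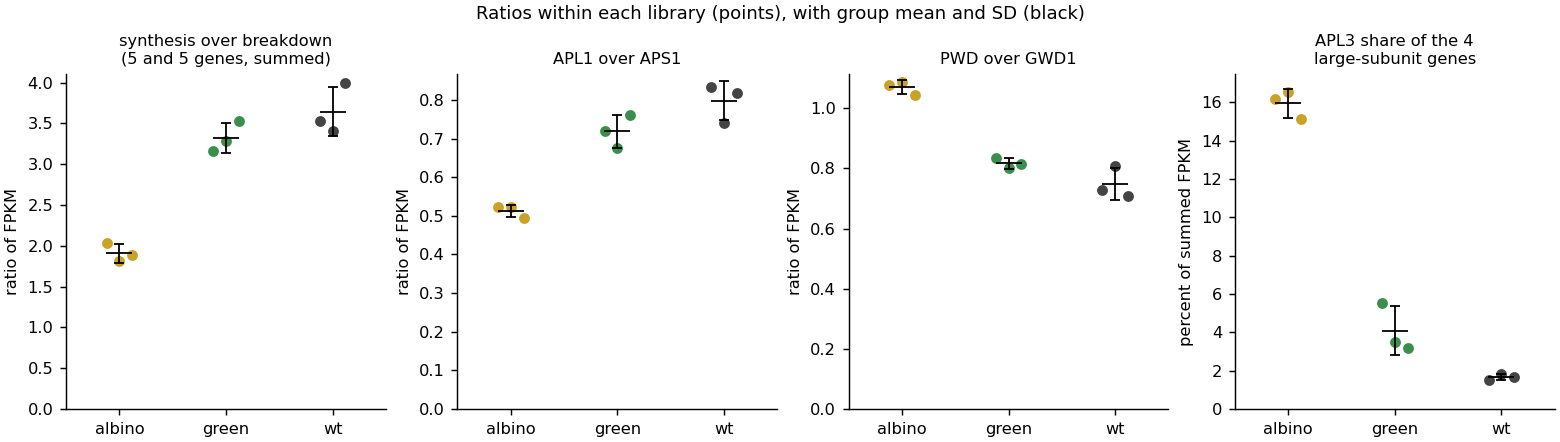
Ratios of FPKM within each library (vertical axes, starting at 0) for albino, green and wild-type (wt) seedlings, points being libraries and black bars the mean and SD. Synthesis over breakdown and APL1 over APS1 were lowest in albino libraries, while PWD over GWD1 and the percent of large-subunit RNA from APL3 were highest there.

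The rest of the starch pathway was read from a list of 37 genes, of which 34 passed the filter on low values and APS2, BAM5 and BAM6 did not. In albino against wild-type seedlings 16 of the 34 were lower and 5 higher, with a median of -0.18. These counts became 5 lower and 13 higher with the authors' scaling undone, under TPM and under a common sum without organelle genes. In that order, 2269, 2104 and 2085 of all 19731 tested genes (19624 under the common sum) were lower. Those higher were 11649, 12212 and 12303. In green against wild-type seedlings 9 of the 34 were higher and 0 lower with limma, and 13 and 0 at an unadjusted p under 0.05, with a median of 0.13. For the unadjusted counts no share of all tested genes was counted. In albino against green seedlings 18 of the 34 were lower and 2 higher, with a median of -0.37. With the scaling undone they were 9 lower and 8 higher, where 1997 of all 19731 tested genes were lower and 11073 higher. The counts in green against wild-type seedlings moved with the libraries, as did those of all tested genes. Without wild-type replicate 3, green replicate 2 or 3, or albino replicate 1 or 2, 5 of the 34 were higher. In that order, 423, 465, 551, 573 and 539 of all 19731 tested genes were higher. Without green replicate 1, 7 of the 34 and 569 of all tested genes were higher. With all libraries, 733 of all tested genes were higher.

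Of 15 other synthesis genes tested, 8 fell and 1 rose in albino seedlings against the wild type, 3 rose and 0 fell in green seedlings, and 10 fell and 0 rose in albino against green seedlings. Over all tested genes 20.1% were lower and 23.4% higher in albino and 5.16% lower and 3.71% higher in green against wild-type seedlings, and 17.7% were lower and 18.5% higher in albino against green seedlings. The branching enzyme gene SBE2.2 fell by 1.23 ± 0.10 in albino seedlings against the wild type (adjusted p = 1.02e-05), and SS3, a synthase of long chains, fell by 1.03 ± 0.14 (adjusted p = 0.000286). PGM1, the plastid phosphoglucomutase at the entry of the pathway, fell by 0.83 ± 0.13 (adjusted p = 0.000684). Against green seedlings the falls were 1.46 ± 0.10 for SBE2.2 (adjusted p = 7.52e-06), 0.88 ± 0.14 for SS3 (adjusted p = 0.000966) and 1.02 ± 0.13 for PGM1 (adjusted p = 0.000277). None of these 3 was called in green seedlings against the wild type. APL3, a large subunit better known from sugar-fed and non-green tissue, stood at 8.58, 7.93 and 6.33 in albino, 7.19, 5.11 and 4.98 in green and 2.60, 2.31 and 2.26 in wild-type libraries. Every mutant library exceeded the wild type, and APL3 rose by 1.34 ± 0.14 in albino (adjusted p = 6.75e-05) and 0.98 ± 0.14 in green seedlings (adjusted p = 0.00331). Between albino and green seedlings its difference was 0.36 ± 0.14 and was not called (adjusted p = 0.0813), although it passed in 6 of the 20 alternative settings. APL3 made up 15.1% to 16.6% of the RNA of the 4 large-subunit genes in albino, 3.20% to 5.55% in green and 1.52% to 1.82% in wild-type libraries. These shares also move with the level of APL1. The share of APL1 averaged 67.9 ± 2.73% in albino, 87.4 ± 1.82% in green and 92.7 ± 0.892% in wild-type libraries (SD, n = 3 each).

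APL4, a further large subunit, was raised in green seedlings. APL4 stood at 2.05, 2.18 and 1.57 in albino, 5.62, 6.24 and 6.24 in green and 2.51, 2.41 and 3.04 in wild-type libraries. It rose by 0.95 ± 0.12 in green seedlings against the wild type (adjusted p = 0.00143) and fell by 1.27 ± 0.12 in albino against green seedlings (adjusted p = 4.03e-05). Its fall of 0.32 ± 0.12 in albino seedlings against the wild type (adjusted p = 0.0490) was lost in 15 of 20 settings, 8 of which left out a library each, and turned to 0.01 in 2 others. ISA2, a non-catalytic isoamylase, rose by 0.38 ± 0.10 in green seedlings (adjusted p = 0.0443). That call was lost without wild-type replicate 2 or 3, green replicate 2 or 3 or albino replicate 1, 2 or 3 (adjusted p of 0.0645 to 0.132 in these fits).

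Of 16 other breakdown genes tested, 3 rose and 7 fell in albino seedlings against the wild type, 5 rose and 0 fell in green seedlings, and 1 rose and 7 fell in albino against green seedlings, to be read against the same shares of all tested genes. PWD, the dikinase that acts after GWD1, rose by 0.73 ± 0.16 in albino (adjusted p = 0.00514) and by 0.66 ± 0.16 in green seedlings (adjusted p = 0.0331). PHS2, the cytosolic glucan phosphorylase, rose by 0.73 ± 0.17 in albino (adjusted p = 0.00674) and 0.85 ± 0.17 in green seedlings (adjusted p = 0.0139). DPE2, the cytosolic enzyme that uses exported maltose, rose by 0.54 ± 0.10 in green seedlings (adjusted p = 0.0114). LSF2, a phosphoglucan phosphatase like SEX4, rose by 0.49 ± 0.13 in green seedlings (adjusted p = 0.0390) and fell by 0.63 ± 0.13 in albino seedlings (adjusted p = 0.00279). That fall of LSF2 no longer passed with the scaling undone (-0.23, adjusted p = 0.0534), under TPM (-0.19, adjusted p = 0.116) or under the common sum (-0.18, adjusted p = 0.131). The limit dextrinase gene LDA fell by 0.78 ± 0.11 in albino seedlings against the wild type (adjusted p = 0.000319), and BAM4, a beta-amylase without catalytic activity that promotes breakdown, rose by 0.68 ± 0.12 (adjusted p = 0.00122).

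Against green seedlings, albino ones had less RNA of LSF2 (-1.13 ± 0.13, adjusted p = 0.000122), LDA (-0.84 ± 0.11, adjusted p = 0.000284), the maltose exporter MEX1 (-0.82 ± 0.15, adjusted p = 0.00238) and the alpha-amylase AMY3 (-0.73 ± 0.11, adjusted p = 0.000616). The difference of AMY3 was -0.36 with the scaling undone (adjusted p = 0.0325) and did not pass under TPM (-0.31, adjusted p = 0.0708) or the common sum (-0.30, adjusted p = 0.0711). The rise of PWD in green seedlings was lost without wild-type replicate 1 or 3, green replicate 1, 2 or 3 or albino replicate 1 or 2 (adjusted p of 0.0514 to 0.1008 in these fits). That of LSF2 was lost without wild-type replicate 2 or 3, green replicate 2 or 3 or albino replicate 1, 2 or 3 (adjusted p of 0.058 to 0.1305 in these fits). PWD over GWD1 averaged 1.07 ± 0.0225 in albino, 0.816 ± 0.017 in green and 0.748 ± 0.0537 in wild-type libraries (SD, n = 3 each), and the albino ratios were the 3 highest. BAM1, another plastid beta-amylase, named after its values were seen, stood at 61.8, 53.4 and 76.1 in albino, 40.8, 54.2 and 52.5 in green and 54.5, 47.1 and 45.2 in wild-type libraries. BAM1 was not called in any comparison. Its change was 0.365 ± 0.151 in albino seedlings against the wild type (adjusted p = 0.0762) and 0.365 ± 0.151 against green ones (adjusted p = 0.0863). BAM1 over BAM3 averaged 4.96 ± 0.322 in albino, 1.02 ± 0.12 in green and 0.832 ± 0.14 in wild-type libraries, with the albino ratios above all others. The fall of BAM3 given above enters this ratio.

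Of 3 envelope transporter genes that link the plastid to the cytosol, GPT2 rose in both mutant groups, TPT fell in albino seedlings and GPT1 was not called. GPT2, a glucose phosphate translocator of the plastid envelope, stood at 21.7, 21.3 and 14.6 in albino, 9.90, 3.26 and 4.504 in green and 0.659, 1.61 and 0.945 in wild-type libraries. The groups did not overlap, and green replicate 1 was the highest green library. GPT2 rose by 3.29 ± 0.32 in albino (adjusted p = 3.35e-05) and by 1.64 ± 0.32 in green seedlings against the wild type (adjusted p = 0.0119), and was 1.65 ± 0.32 higher in albino than in green seedlings (adjusted p = 0.00291). The triose phosphate translocator TPT stood at 106.1, 97.7 and 101.2 in albino, 276.4, 330.5 and 314 in green and 396.3, 274.6 and 273.1 in wild-type libraries. TPT fell by 1.60 ± 0.15 in albino seedlings against the wild type (adjusted p = 2.78e-05) and by 1.58 ± 0.15 against green ones (adjusted p = 4.82e-05).

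Without green replicate 1, the other named genes called in green against wild-type seedlings kept their call except PWD, which had 0.56 (adjusted p = 0.1008), and AMY3, which had 0.34 (adjusted p = 0.123), against 0.41 (adjusted p = 0.0435) with all libraries. The changes were then 0.83 for APL3 (adjusted p = 0.00677), 0.99 for APL4 (0.00340), 0.44 for ISA2 (0.0456), 0.78 for PHS2 (0.0464), 0.48 for DPE2 (0.0385), 0.60 for LSF2 (0.0227) and 1.25 for GPT2 (0.0143). The call of AMY3 was lost in 15 of the 20 alternative settings, 8 of which left out a library each.

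**Figure D4:**
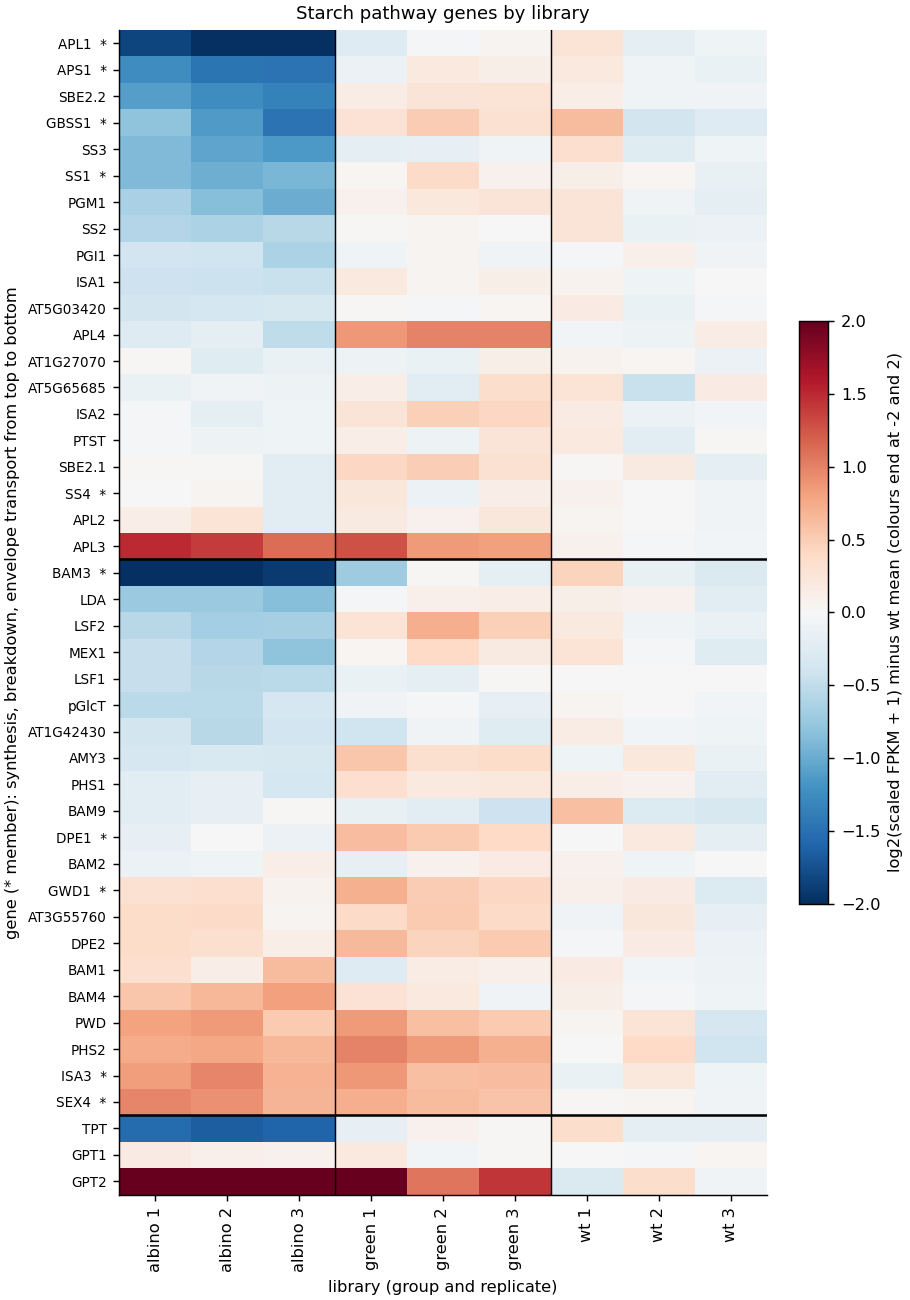
Starch pathway genes (rows, an asterisk marking the 10 followed here) in each library (columns: albino, green and wild-type, replicates 1 to 3), coloured by log2(scaled FPKM + 1) minus the wild-type mean, with colours ending at -2 and 2. The albino columns are blue for APL1, APS1 and BAM3 and red for APL3, SEX4, ISA3 and GPT2.

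The tested gene most like each of the 10 was sought by the root mean square difference of log2 values, each centred on its own mean, over the 9 libraries. For GWD1 it was DPE2, at 0.089, a gene of the same pathway. SEX4 and ISA3 had rank 2 for each other, at 0.104, behind XTH31 for SEX4 (0.086) and AT4G21215 for ISA3 (0.083). SBE2.1 had rank 3 for DPE1, at 0.103, behind AT3G23740 (0.088) and TUB5. The nearest genes were AT4G13495 for APL1 (0.066), EMB3126 for APS1 (0.066), AT2G24860 for SS1 (0.056), AT5G56900 for SS4 (0.066), AT2G27420 for GBSS1 (0.124) and GSTU18 for BAM3 (0.132). The libraries shared by all genes make these distances a description of the patterns alone.

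The scaling of the libraries sets where 0 lies for the albino group. The authors' factor averaged 0.787 ± 0.00551 in albino, 1.04 ± 0.0848 in green and 1.05 ± 0.0528 in wild-type libraries (SD, n = 3 each). With it, 53.8% of the genes called in albino against wild-type seedlings were higher, and the median of all tested genes was 0.07. Undone, or replaced by TPM or by a common sum without organelle genes, the share of higher calls was 83.7%, 85.3% and 85.5% and the median of all tested genes 0.43, 0.51 and 0.48. In albino against green seedlings the share was 51.2% with it and 84.7%, 86.6% and 86.7% under these scalings. APL1, APS1, SS1, GBSS1 and BAM3 were lower and ISA3 and SEX4 higher in albino than in wild-type seedlings under all 5 scalings. GWD1 passed as higher in albino than in wild-type seedlings under those 3 scalings (0.64 to 0.70), and SS4 and DPE1 turned to 0.33 to 0.39 and 0.29 to 0.34. Under TPM and the common sum SS4 (adjusted p = 0.0406 and 0.0367) and DPE1 (0.0351 and 0.0323) also passed as higher. With the scaling undone they did not pass (0.0554 and 0.0562). The fall of DPE1 in albino against green seedlings was -0.25, -0.20 and -0.19 under those 3 scalings and did not pass (adjusted p = 0.0896, 0.190 and 0.193). ISA3 and SEX4 then passed as higher in albino than in green seedlings, at 0.51 to 0.58 and 0.59 to 0.66. Relative to the median of all tested genes, these scalings left GWD1 at 0.20 to 0.21 in albino against wild-type seedlings, SS4 at -0.10 to -0.12 and DPE1 at -0.14 to -0.16.

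**Figure D5:**
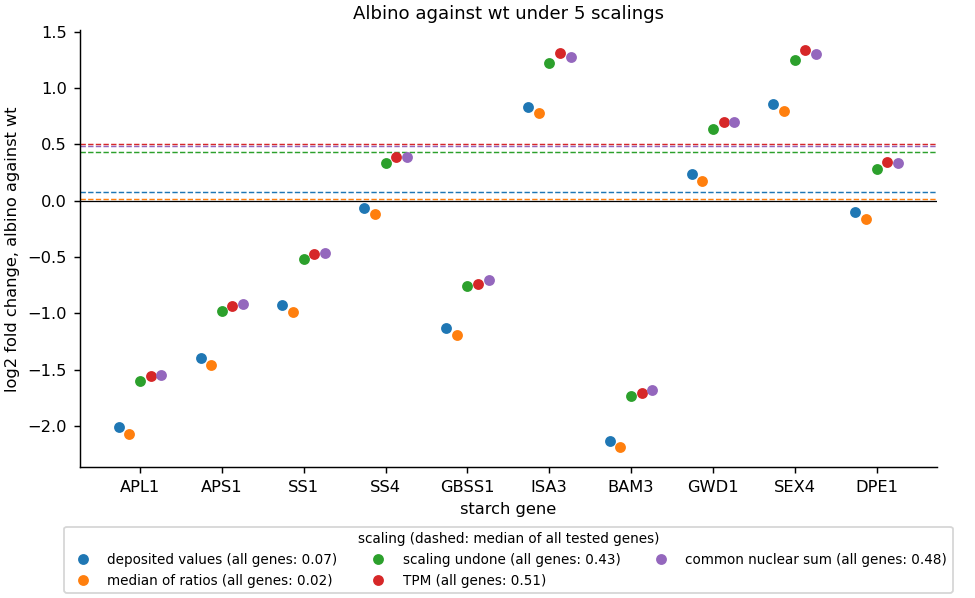
Log2 fold change of the 10 starch genes in albino against wild-type (wt) seedlings (vertical axis) under the deposited values and 4 other scalings (colours), with dashed lines at the median of all tested genes under each. APL1, APS1, SS1, GBSS1 and BAM3 stay below 0 and ISA3 and SEX4 above the dashed lines under all 5, while SS4 and DPE1 cross 0.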

How the data were processed

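RNA from 9 libraries of whole seedlings, 3 per group, was analysed. Per the labels' protocols, poly(A) RNA went into a stranded Illumina ligation kit, and the submitters' processing notes list TAIR10, FastQC, HISAT2 and StringTie, with no version of a tool. The authors deposited log2 values, a table of 32833 genes. Read from the values, since no header says so, these are log2(FPKM times a factor per library + 1), every library having the same 75th percentile (3.70). The plan had been to log plain FPKM after adding 1; the values already were on that scale, and no further step was taken. A common 75th percentile places groups relative to their upper-quartile genes, which moves the zero point if most genes shift together. Relative depth was read from steps of low FPKM values, and 22926 to 23963 genes per library were above 0.

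The filter asked for a scaled FPKM of 1 or more in 3 or more libraries and left 19731 genes. They were tested with limma 3.58.1 (R 4.3.3) in 1 fit of all 9 libraries with group means, moderated variances with a trend and Benjamini-Hochberg adjustment over all tested genes. A gene was called at adjusted p under 0.05. Figures were drawn with matplotlib 3.10.9, and sums used pandas 2.3.3 and numpy 2.4.6 (Python 3.11.15). Gene names and positions were matched by locus to the TAIR10.1 annotation for 32548 genes. The fit was checked on simulated data.

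The members and the list of 37 other starch genes were chosen with earlier results of these data known. Of those others, the 4 called genes with the largest change and no overlap of groups were named per comparison in each of the lists of synthesis, breakdown and transport. Alternatives were a pseudocount of 0.1 or 5, no filter or a minimum of 5, the scaling undone, TPM, a common sum without organelle genes, median of ratios, only the 6 libraries compared, a replicate block, each library left out in turn, and green replicates 2 and 3 left out together. Reads, splicing and protein were not analysed here.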

Additional observations from a re-analysis of the deposited data

Results flagged for a closer look

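For 6 of the 10 starch genes the log2 fold changes against the wild type differed between albino and green seedlings. The wild type cancels in this difference, albino minus green, which is therefore the albino against green contrast of the limma fit given in the report and no separate test. It was -1.93 for APL1, -1.46 for APS1, -1.09 for SS1, -1.5 for GBSS1, -1.84 for BAM3 and -0.614 for DPE1. Adjusted p over all tested genes was 1.20e-05 for APL1, 2.94e-05 for APS1, 6.44e-05 for SS1, 0.00130 for GBSS1, 0.000253 for BAM3 and 0.00194 for DPE1. For APL1, APS1, SS1, GBSS1 and BAM3 the albino libraries were below all green and all wild-type libraries. For DPE1 the albino libraries were below all green ones and overlapped the wild type, and its difference did not pass with the scaling undone (-0.25, adjusted p = 0.0896), under TPM (-0.20, adjusted p = 0.190) or under the common sum (-0.19, adjusted p = 0.193). Green-tissue marker RNA, summed over 4 genes, was 2876 to 3456 in albino and 23840 to 38620 in green libraries, and its part in these differences was not tested.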

How the results depend on the processing

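Of the 10 starch genes in 3 comparisons and 20 alternatives, 552 values kept their direction and their side of the threshold. A further 11 passed in addition, 18 no longer passed and 19 turned direction. For the other named genes the numbers were 834, 16, 86 and 24. Part of these values could not turn. A changed filter, the 6 libraries alone, the replicate block and leaving out libraries of the group not compared leave the fold change as it was. In these only the adjusted p can move, so the tally is no measure of how firm the directions are. The number of the 10 genes higher in green against wild-type seedlings, 4 in the report, was 2 with only the 6 libraries compared. It was 2 to 4 when each library was left out. Of all 19731 tested genes, 733 were higher in green seedlings in the report. That number was 431 with only the 6 libraries compared and 423 to 707 when each library was left out. The number of the 10 genes higher in albino against wild-type seedlings, 2 in the report, became 5 under TPM and under a common sum without organelle genes. SS4 and DPE1 are among these 5, although the tally above holds them as turned. Of all tested genes, 12212 of 19731 were higher under TPM and 12303 of 19624 under the common sum. Higher in albino against green seedlings, 0 in the report, became 2 with the scaling undone, under TPM and under the common sum, and was 0 to 1 when each library was left out.

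For the other starch genes, the 9 higher in green against wild-type seedlings became 5 without a filter and 5 with only the 6 libraries. They were 5 to 9 when each library was left out. Of all tested genes, 733 of 19731 were higher there in the report, 598 of 26502 without a filter and 431 of 19731 with only the 6 libraries. The all-gene number was 423 to 707 when each library was left out. In albino against wild-type seedlings, 13 were higher and 5 lower with the scaling undone, under TPM and under the common sum (5 and 16 in the report). In albino against green seedlings, 8 were higher and 9 lower with the scaling undone, and 9 and 8 under TPM and under the common sum (2 and 18 in the report). These 3 scalings lift all genes of the albino libraries together, as the medians in the report show. Of all 19731 tested genes, 11649 were higher and 2269 lower in albino against wild-type seedlings with the scaling undone. TPM gave 12212 and 2104 there, and the common sum 12303 and 2085 of 19624. In albino against green seedlings the all-gene counts were 11073 and 1997, 11859 and 1839, and 11947 and 1835, in that order. For the other changes of the starch gene counts the cause was not tested.

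Under the scaling undone, TPM and the common sum, in that order, direction turned in albino against wild-type seedlings to 0.33, 0.39 and 0.39 for SS4, 0.29, 0.34 and 0.34 for DPE1, 0.27, 0.33 and 0.32 for ISA2 and 0.077, 0.13 and 0.13 for AMY3. APL4 turned to 0.0060 under TPM and 0.010 under the common sum. In albino against green seedlings the values were 0.23, 0.29 and 0.29 for SS4, 0.071, 0.13 and 0.13 for GWD1, 0.25, 0.31 and 0.31 for PHS2 and 0.11, 0.17 and 0.17 for DPE2. In green against wild-type seedlings TPT turned to 0.0080, 0.00066 and 0.0051.

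With each library left out, values that lay near 0 also turned. In green against wild-type seedlings the lowest and highest values were -0.17 and 0.049 for APL1, -0.0026 and 0.16 for APS1, -0.27 and 0.020 for SS3, -0.042 and 0.12 for LDA and -0.11 and 0.16 for TPT. They were -0.12 and 0.024 for SS4 in albino against wild-type seedlings, and -5.9e-06 and 0.17 for PWD in albino against green seedlings. Without green replicates 2 and 3, APS1 was -0.12 and LDA -0.046 in green against wild-type seedlings, and ISA3 was -0.030 and PWD -0.13 in albino against green seedlings.

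The replicate numbers in the titles were not taken to pair the libraries, and the correlations do not settle whether they do. Same-numbered libraries had -0.147 to 0.281, and different-numbered ones -0.355 to 0.151. Between green and wild-type libraries, same-numbered replicates 2 and 3 had the highest values (0.281 and 0.267), and replicates 1 had -0.0783. A fit with the replicate number as a block gave 4 higher and 0 lower of the 10 genes in green and 2 higher and 5 lower in albino against wild-type seedlings, and 0 higher and 7 lower in albino against green seedlings, GWD1 passing in addition (-0.31, adjusted p = 0.0326). With 3 libraries a group and no read counts, precision at low levels, such as APL4, is limited.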

Other observations

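Further starch genes, named after their values were seen, were lower in albino than in wild-type seedlings by limma with Benjamini-Hochberg adjustment. PGI1, the plastid phosphoglucose isomerase, fell by 0.47 ± 0.10 (adjusted p = 0.00325), and SS2, a synthase of medium chains, fell by 0.59 ± 0.11 (adjusted p = 0.00178). ISA1, the catalytic isoamylase of synthesis, fell by 0.43 ± 0.08 (adjusted p = 0.00166). LSF1, a glucan-binding protein of breakdown, fell by 0.52 ± 0.08 (adjusted p = 0.000826), and the plastid glucose transporter pGlcT fell by 0.47 ± 0.09 (adjusted p = 0.00167). With the scaling undone, under TPM and under a common sum without organelle genes, PGI1, SS2, ISA1, LSF1 and pGlcT all lost the call, with changes of -0.22 to 0.0059 (adjusted p of 0.104 to 0.997). Relative to the median of all tested genes those changes were -0.69 to -0.48. None of these 5 genes was called in green seedlings against the wild type.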
